A study of Neurospora crassa with 84 samples.

Results

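The genes described here are mat A-1 (NCU01958), mat A-2 (NCU01959) and mat A-3 (NCU01960), which together form the mat A mating-type locus of the filamentous fungus Neurospora crassa, and fmf-1 (NCU09387), a gene needed for fertility of both the female and the male parent. They were chosen by gene identifier, with no cut on a measured level. All 4 of the 10590 genes in the count table were found, and all 4 passed the filter on low counts that left 9701 genes for testing. RNA came from the scraped surface of cultures on a nitrogen-poor crossing medium, where the fungus makes protoperithecia, its unfertilized female organs. The cultures were the wild type (OR74A background) or ∆ve-1, a strain in which ve-1, the gene of a velvet-family regulator of development, was deleted. Both female strains were mat A, and both were kept either in the dark or in light before and after the cross. Tissue was taken 2 days and 1 day before fertilization (days -2 and -1), on day 0 just before conidia of a wild-type mat a strain were applied to both females, and on days 1, 2, 4 and 6 of the cross. Strain, light and day gave 28 groups of 3 libraries, 84 libraries in all. Each genotype was 1 strain, and the study pooled tissue of biological replicates before RNA extraction, so the p-values below measure the spread between these libraries, which may be technical.

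A haploid N. crassa nucleus carries either mat A or mat a, unrelated sequences that sit at the same chromosomal position. mat A-1 encodes an alpha-box transcription factor that sets mating identity, is required for fertilization and also triggers vegetative incompatibility between nuclei of opposite type. mat A-2 and mat A-3, which encodes a protein with an HMG (high mobility group) box, act after fertilization, in the tissue that gives rise to asci. fmf-1 encodes another HMG-box protein, related to Ste11 of fission yeast, and is known for its part in the expression of pheromones and their receptors. The reference genome is that of a mat A strain, so mat A counts can come only from nuclei of the female, whereas fmf-1 is carried by both parents, and from day 1 on its counts from female tissue and from the applied mat a cells cannot be told apart.

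In the RefSeq annotation of assembly NC12 all 4 genes lie on chromosome I. The mat genes are adjacent, with mat A-3 at positions 1857194 to 1858469, mat A-2 at 1859093 to 1860424 and mat A-1 at 1860692 to 1862194. Between mat A-3 and mat A-2 lie 623 bases, and between mat A-2 and mat A-1 lie 267 bases. fmf-1 lies apart from them, at 3502631 to 3504624. No annotated gene overlaps any of the 4. Exon positions, untranslated regions and sequences were not analysed here.

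Library totals ran from 14526546 to 18376011 counts, and 1 count at the median depth came to 0.0606 CPM (counts scaled to the library size, here after TMM normalization). ve-1 had 2272 to 11859 counts in wild-type libraries and 101 to 281 in ∆ve-1 libraries. A list of 5 markers of conidia and conidiation (eas, con-6, con-8, con-10 and fl) and a list of 8 markers of perithecia, asci and meiosis (per-1, sub-1, asm-1, app, spo11, msh4, msh5 and sad-1) were followed beside the 4 genes, and no marker was at 0 in any library. In dark libraries after fertilization the conidia list summed to 1465 to 6400 CPM for wild type and 11940 to 21220 CPM for ∆ve-1, and in light libraries of that stage to 7650 to 23460 CPM and 61220 to 97890 CPM. Before fertilization the sums were 1133 to 23900 CPM for wild type and 8797 to 67110 CPM for ∆ve-1 in dark libraries, and 32380 to 72970 CPM and 47900 to 107300 CPM in light libraries. The perithecium list after fertilization summed to 1800 to 23200 CPM for wild type and 1047 to 12380 CPM for ∆ve-1 in dark libraries, and to 4846 to 31880 CPM and 280.8 to 612.8 CPM in light libraries.

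Levels of different genes were compared as TPM computed from the length of each annotated gene, introns included. On that scale mat A-1 was the most abundant of the 4, with a mean of 137 TPM over the 84 libraries, above 86.7% of the tested genes. fmf-1 followed with 46.4 TPM, above 58.4% of the genes, then mat A-3 with 11.8 TPM (21.1%) and mat A-2 with 4.93 TPM (12.1%). mat A-1 was above mat A-2 and mat A-3 in all 28 groups, but by a ratio that varied widely. In TPM, the ratio of mat A-1 to mat A-3 was lowest, 1.62, in the wild type in the dark on day 2, and highest, 22.3, in ∆ve-1 in the dark on day 1. The ratio of mat A-3 to mat A-2 stayed between 1.53 and 4.65. In raw counts a library held 127 to 5078 fragments of mat A-1, 8 to 2710 of fmf-1, 25 to 370 of mat A-3 and 5 to 174 of mat A-2, so mat A-2 was the gene with the coarsest measurement.

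The question behind the strain comparison was how the loss of VE-1 changes gene expression during sexual development. Transcripts of all 4 genes were more abundant in ∆ve-1, both in dark and in light cultures. Averaged over the 7 days in the dark, the change on the log2 scale (∆ve-1 relative to wild type) was 2.50 ± 0.309 for fmf-1 (SE, adjusted p = 1.41e-10), a 5.67-fold difference. It was 1.91 ± 0.190 for mat A-1 (adjusted p = 1.36e-13), a 3.75-fold difference. For mat A-2 it was 1.33 ± 0.220 (adjusted p = 2.92e-07), and for mat A-3 1.13 ± 0.152 (adjusted p = 1.79e-09). The 4 genes were thus all past the test (adjusted p under 0.05) and higher, where 36.5% of all tested genes were.

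In light the changes over the 7 days were 1.90 ± 0.298 for fmf-1 (adjusted p = 6.06e-08), 1.63 ± 0.186 for mat A-1 (adjusted p = 6.9e-12), 1.32 ± 0.147 for mat A-3 (adjusted p = 3.9e-12) and 1.27 ± 0.208 for mat A-2 (adjusted p = 1.63e-07). Again all 4 were higher, against 38.9% of the tested genes. The difference between the light and the dark strain effect over 7 days passed the test for none of the 4 genes, while 44.3% of all genes passed it in either direction. On the log2 scale this difference (light minus dark) was -0.27 ± 0.259 for mat A-1, -0.06 ± 0.284 for mat A-2, 0.19 ± 0.211 for mat A-3 and -0.61 ± 0.420 for fmf-1, with adjusted p = 0.424, 0.927, 0.503 and 0.249 in edgeR's test. At an unadjusted p under 0.05 the number was also 0 of the 4, and DESeq2 gave 0 of the 4 as well. Conidia markers were also higher in ∆ve-1 over the 7 days, 5 of 5 past the test in the dark (median log2 change 3.55) and 5 of 5 in light (1.93). Of all genes 36.5% and 38.9% were higher. Of the 8 perithecium markers 5 were lower and 1 higher in the dark, and 6 lower and none higher in light (medians -0.62 and -0.97), where 35.7% and 40.7% of all genes were lower. The part of such a difference in tissue makeup in the changes of the 4 genes was not tested, and more cells of a type cannot be told apart from more RNA per cell.

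**Figure D1:**
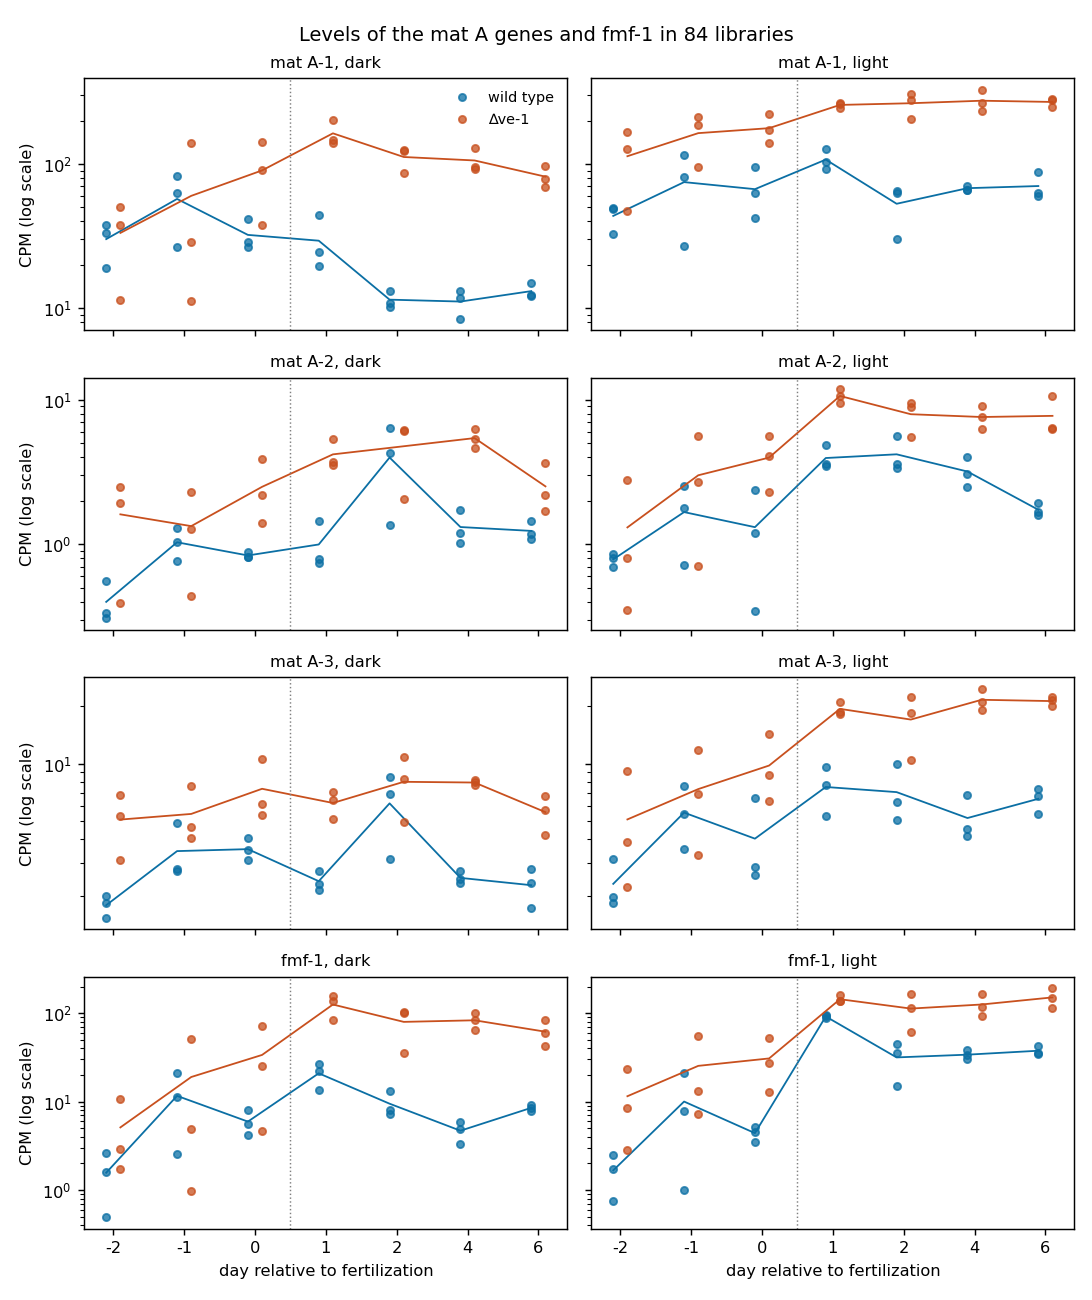
Level of each gene in CPM (log scale, one range per gene) in every library against the day relative to fertilization, in the dark (left) and in light (right). Points are single libraries of the wild type (blue) and ∆ve-1 (orange), lines join the means of 3 libraries and the dotted line marks fertilization. In the dark after fertilization mat A-1 lies between 69.5 and 202.9 CPM in ∆ve-1 and between 8.43 and 44 CPM in the wild type.

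mat A-1 showed the clearest course in the dark. On day 0 its 3 wild-type libraries stood at 26.4, 41.5 and 28.7 CPM, and the ∆ve-1 libraries at 37.4, 91.1 and 142.2 CPM. The strains overlapped on that day because the lowest mutant library lay within the wild-type range. On day 1 the wild-type values were 19.7, 44 and 24.5 CPM, and those of ∆ve-1 were 147.9, 138.9 and 202.9 CPM. From day 1 on no mutant library came down to the level of any wild-type library of the same day. Of all tested genes, 24.3% lay above the wild type without overlap in the dark on day 0, 30.2% on day 1, 27.3% on day 2, 27.6% on day 4 and 25.5% on day 6.

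By day 2 the wild-type level of mat A-1 in the dark was 10.9, 10.3 and 13.2 CPM, against 125.4, 86.6 and 123.5 CPM in ∆ve-1. On day 4 it was 13.1, 11.8 and 8.43 CPM against 95.2, 92.4 and 129.9 CPM, and on day 6 14.9, 12.3 and 12.2 CPM against 78.3, 97.3 and 69.5 CPM. These wild-type libraries of days 2 to 6 were the lowest mat A-1 values of the whole series apart from 2 mutant libraries taken before fertilization. The log2 change on single days was 2.47 ± 0.509 on day 1, 3.29 ± 0.533 on day 2, 3.25 ± 0.533 on day 4 and 2.64 ± 0.520 on day 6. On days -2 and -1 it was 0.14 ± 0.488 and 0.07 ± 0.483, neither past the test (adjusted p = 0.853 and 0.939). On day 0, before conidia were applied, it was 1.49 ± 0.494 and passed (adjusted p = 0.0115), but without replicate 3 it was 0.89 (adjusted p = 0.269).

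Over the 4 days after fertilization in the dark, mat A-1 was thus 7.53-fold higher in ∆ve-1 (log2 change 2.91 ± 0.262, adjusted p = 7.7e-15). Before fertilization the difference was 0.57 ± 0.281 and did not pass (adjusted p = 0.0733). The difference between these stages was 2.35 ± 0.378 (adjusted p = 9.65e-07). In the same comparison fmf-1 had 1.54 ± 0.619 (adjusted p = 0.0405), and without replicate 2 of every group it was 1.02 (adjusted p = 0.366). mat A-2 (0.04 ± 0.525, adjusted p = 0.995) and mat A-3 (0.11 ± 0.306, adjusted p = 0.841) did not pass. Of all genes 40.3% passed this test in either direction. The summed conidia list in ∆ve-1 in the dark had a median of 20120 CPM before and 17720 CPM after fertilization, and in the wild type 1703 and 2313 CPM. This sum mixes unlike courses. In ∆ve-1 in the dark the group means of eas ran from 5295 to 34970 CPM before and from 3391 to 6215 CPM after fertilization. Those of con-10 ran from 492.9 to 1509 CPM before and from 2100 to 4366 CPM after it. The ranges of con-6, con-8 and fl overlapped between the stages. In the dark the summed perithecium list of the wild type had medians of 1034 CPM before and 10890 CPM after fertilization. In ∆ve-1 these medians were 698.5 and 3286 CPM. The part of these changes in tissue makeup in the stage difference of mat A-1 was not tested.

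In the dark the mean level of mat A-1 changed in opposite directions in the strains from one stage to the other. From before to after fertilization it fell by 1.36 ± 0.266 on the log2 scale in the wild type (adjusted p = 1.07e-05, where 33.2% of all genes were lower) and rose by 0.99 ± 0.267 in ∆ve-1 (adjusted p = 0.00113). The 9 wild-type libraries before fertilization ran from 19.1 to 82.1 CPM with a median of 33.4, and the 12 libraries after it from 8.43 to 44 CPM with a median of 12.7. In ∆ve-1 the range was 11.2 to 142.2 CPM before (median 37.8) and 69.5 to 202.9 CPM after (median 110.4). The rise in this strain is one between stage means. Its group means were 33.25, 60.12 and 90.25 CPM on days -2, -1 and 0, before conidia were applied. The mean was highest on day 1, at 163.2 CPM, and on day 6 it was 81.68 CPM, below that of day 0. The mutant libraries before fertilization varied widely within a day. On day -1 they stood at 140.3, 11.2 and 28.9 CPM, and fmf-1 in the same libraries stood at 51.1, 0.981 and 4.88 CPM.

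In light mat A-1 stood at higher levels in both strains. On day 0 the wild-type libraries had 63.1, 95.2 and 42.4 CPM and the ∆ve-1 libraries 220.6, 139.6 and 171.6 CPM. On day 1 they had 92.7, 126.2 and 102.9 CPM against 245, 258.8 and 267.1 CPM. The strains did not overlap on either day, and did not on any later day. Of all tested genes, 28.7% lay above the wild type without overlap in light on day 0, 36.5% on day 1, 32% on day 2, 35.6% on day 4 and 37.6% on day 6.

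After fertilization in light the 12 wild-type libraries of mat A-1 ran from 30.2 to 126.2 CPM (median 66.5) and the 12 ∆ve-1 libraries from 206.1 to 326.8 CPM (median 265.3). The strain difference was 1.88 ± 0.248 after (adjusted p = 6.58e-10) and 1.30 ± 0.282 before fertilization (adjusted p = 4.85e-05). The stages did not differ past the test (0.58 ± 0.368, adjusted p = 0.187). mat A-1 was past the test on all 7 days in light, from 1.13 ± 0.486 on day -1 to 2.32 ± 0.504 on day 2. On days -2, -1, 0 and 1 the call was lost when 1 replicate was left out, with 0.63 on day -1 without replicate 2 (adjusted p = 0.436) as the lowest value.

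fmf-1 rose past the test after fertilization in 3 of the 4 conditions, and the value for the other, dark cultures of the wild type, depended on the fit. In light its 3 wild-type libraries had 3.51, 5.17 and 4.53 CPM on day 0 and 87.6, 92.3 and 95.9 CPM on day 1. In ∆ve-1 in light they had 52.1, 12.9 and 27.4 CPM on day 0 and 136.4, 137 and 158.7 CPM on day 1. The mutant thus stood above the wild type on both days without overlap, as did 28.7% and 36.5% of all tested genes. The wild type came closer on day 1, where the log2 change of 0.65 ± 0.732 did not pass the test (adjusted p = 0.446).

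In the wild type in light fmf-1 had 35.5, 15 and 44.4 CPM on day 2 and 34.4, 43.1 and 35.6 CPM on day 6. In ∆ve-1 in light it stood at 163.6, 114 and 61.1 CPM on day 2 and at 113.3, 149.1 and 190.8 CPM on day 6. The strains did not overlap on either day, where 32% and 37.6% of all tested genes lay above the wild type without overlap. The change of fmf-1 passed on days 2, 4 and 6 (1.83 ± 0.758, 1.88 ± 0.759 and 2.00 ± 0.760). Without replicate 2 it did not pass on any of these days, at 1.49, 1.55 and 2.12 (adjusted p = 0.188, 0.171 and 0.0596), nor on day 6 without replicate 3 (1.84, adjusted p = 0.0715). The step from day 1 to day 6 did not pass in either strain in light (-1.29 ± 0.746, adjusted p = 0.137, in the wild type and 0.07 ± 0.728, adjusted p = 0.972, in ∆ve-1). From before to after fertilization fmf-1 rose by 3.38 ± 0.479 in the wild type in light (adjusted p = 6.92e-09), a 10.4-fold difference, and by 2.67 ± 0.439 in ∆ve-1 in light (adjusted p = 9.67e-07). The summed conidia list had medians of 58630 CPM before and 12600 CPM after fertilization in the wild type in light, and of 65620 and 85060 CPM in ∆ve-1. In the wild type in light its markers did not move as one. Group means of eas ran from 38020 to 51530 CPM before and from 538.3 to 2973 CPM after fertilization. Those of con-6 and fl were also lower after it. Those of con-10 ran from 1396 to 2335 CPM before and from 2563 to 5170 CPM after it, and con-8 overlapped between the stages. In light the summed perithecium list of the wild type had medians of 1975 CPM before and 10030 CPM after fertilization. In ∆ve-1 these medians were 503.5 and 472.6 CPM.

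In the dark the wild-type level of fmf-1 was 4.24, 8.09 and 5.52 CPM on day 0 and 13.7, 26.7 and 22.4 CPM on day 1. The ∆ve-1 libraries had 4.63, 25.6 and 71 CPM on day 0 and 136.9, 82.9 and 156.7 CPM on day 1. On day 4 the wild type had 5.84, 4.92 and 3.32 CPM while ∆ve-1 had 84.3, 64.6 and 100.8 CPM. No mutant library overlapped the wild type on any of the 4 days after fertilization in the dark. The share of all tested genes above the wild type without overlap on those days was 30.2%, 27.3%, 27.6% and 25.5%.

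The largest strain difference of any of the 4 genes on any day was that of fmf-1 in the dark on day 4, 4.14 ± 0.862 on the log2 scale (adjusted p = 0.000114). Over the days after fertilization in the dark it was 3.16 ± 0.407 (adjusted p = 8.18e-10), an 8.96-fold difference, and over the days before 1.62 ± 0.482 (adjusted p = 0.00271). The earlier difference rested on few libraries, since it was 0.66 without replicate 1 of every group and 1.18 without replicate 3 (adjusted p = 0.318 and 0.0702). From before to after fertilization fmf-1 in dark cultures of ∆ve-1 rose by 2.52 ± 0.441 (adjusted p = 1.79e-06). For dark cultures of the wild type the value was 0.98 ± 0.460, which did not pass (adjusted p = 0.057) but did with DESeq2 (1.02, adjusted p = 0.0281), with only the libraries compared (1.00, adjusted p = 0.00781) and without replicate 1 (1.20, adjusted p = 0.0371). In light the strain difference was 2.30 ± 0.483 before and 1.59 ± 0.375 after fertilization (adjusted p = 2.93e-05 and 0.000123), and these did not differ past the test (-0.71 ± 0.599, adjusted p = 0.334), where 52.4% of all genes differed.

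mat A-2 was the least abundant of the 4 genes. On day 0 in the dark it had 0.813, 0.886 and 0.812 CPM in the wild type and 2.21, 1.40 and 3.89 CPM in ∆ve-1. On day 1 it had 0.796, 1.45 and 0.747 CPM against 5.34, 3.52 and 3.73 CPM. The strains did not overlap on these days. On day 2 they did, at 4.26, 6.34 and 1.36 CPM in the wild type and 6.11, 2.05 and 6.17 CPM in ∆ve-1, and the change of 0.26 ± 0.524 did not pass (adjusted p = 0.71). On day 4 the wild type had 1.03, 1.20 and 1.73 CPM against 4.62, 5.40 and 6.30 CPM, again without overlap. The share of all tested genes above the wild type without overlap was 24.3% on day 0, 30.2% on day 1 and 27.6% on day 4.

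mat A-3 had the same day-2 feature in the dark. Its wild-type libraries stood at 2.16, 2.33 and 2.7 CPM on day 1, at 8.46, 6.90 and 3.13 CPM on day 2 and at 2.7, 2.33 and 2.46 CPM on day 4. In both genes the libraries of replicates 1 and 2 carried the high values and replicate 3 stayed low. mat A-1, their neighbour, had its lowest wild-type levels in the dark from the same day on, so that its ratio to mat A-3 in TPM went from 10.3 on day 1 to 1.62 on day 2. The ∆ve-1 libraries of mat A-3 on day 2 had 8.28, 4.90 and 10.9 CPM and overlapped the wild type (0.38 ± 0.385, adjusted p = 0.434).

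In light mat A-2 on day 1 had 3.46, 4.84 and 3.58 CPM in the wild type and 11.8, 9.54 and 10.6 CPM in ∆ve-1. mat A-3 on the same day had 5.28, 9.62 and 7.67 CPM against 18.8, 18.3 and 21.2 CPM. On day 6 mat A-2 had 1.67, 1.93 and 1.61 CPM against 6.31, 6.38 and 10.6 CPM. Neither gene overlapped between the strains on these days. The share of all tested genes above the wild type without overlap was 36.5% on day 1 and 37.6% on day 6. mat A-3 stayed between 10.5 and 24.7 CPM in the 12 ∆ve-1 libraries after fertilization in light, and between 4.14 and 9.90 CPM in those of the wild type.

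Before fertilization in the dark the strain difference was 1.30 ± 0.354 for mat A-2 (adjusted p = 0.0011) and 1.07 ± 0.232 for mat A-3 (adjusted p = 6.3e-05). After fertilization it was 1.34 ± 0.279 and 1.17 ± 0.201 (adjusted p = 2.86e-05 and 8.85e-07). So in the dark 3 of the 4 genes (all but mat A-1) were past the test and higher before fertilization, where 34.9% of all genes were, and 4 of 4 after it, where 31.8% were. In light the differences were 1.05 ± 0.333 and 0.93 ± 0.228 before (adjusted p = 0.00436 and 0.000261) and 1.44 ± 0.266 and 1.60 ± 0.193 after fertilization (adjusted p = 2.19e-06 and 4.88e-11). Without replicate 1 the change of mat A-2 before fertilization in the dark was 1.08 (adjusted p = 0.0541), and without replicate 3 that in light was 0.44 (adjusted p = 0.308). With all libraries the 4 genes were past the test and higher in light at both stages, where 35.9% of all genes were before and 38.4% after fertilization.

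On single days the strain difference was positive for each of the 4 genes on all 7 days in both light conditions. In the dark it passed the test on 5 days for mat A-1, mat A-3 and fmf-1 and on 4 days for mat A-2, and in light on 7, 6, 5 and 4 days in that order of genes. Of all genes, the share past the test and higher on days -2, -1, 0, 1, 2, 4 and 6 was 24%, 22.8%, 25.1%, 23.7%, 25%, 18.7% and 18.6% in the dark, and 26.5%, 24.8%, 25.7%, 30.6%, 31.4%, 30.3% and 31.8% in light. mat A-1 and fmf-1 lay above the wild type without overlap on each of the 4 days after fertilization in the dark, as did 11.8% of all tested genes. In light mat A-1, mat A-3 and fmf-1 did so, as did 20.3% of all genes. mat A-2 missed this on day 2 in both conditions. Of the 41 single-day calls among 56, 17 held whichever replicate was left out, 4 of them those of mat A-1 in the dark on days 1, 2, 4 and 6. In 49 of the 56 the strain difference stayed positive in each case.

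**Figure D2:**
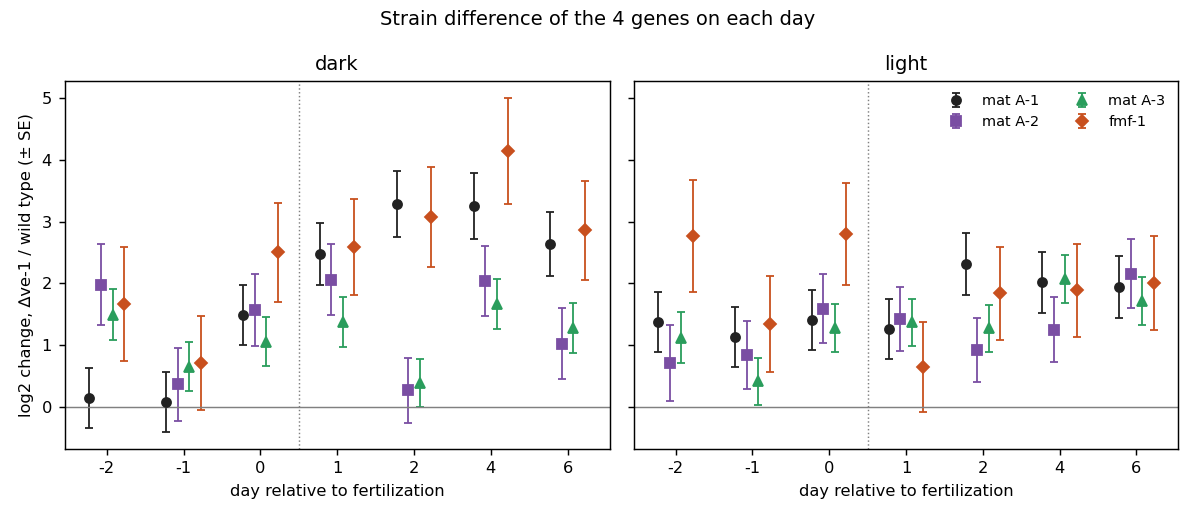
Log2 change (∆ve-1 relative to wild type) of each gene on each day, in the dark (left) and in light (right), with bars of 1 SE and the dotted line at fertilization. In the dark mat A-1 goes from 0.07 on day -1 to 3.29 on day 2, while mat A-2 and mat A-3 lie at 0.26 and 0.38 on day 2.

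The study also asked how light acts on sexual development. All 4 genes were higher in light than in the dark in the wild type over the 7 days, by 1.58 ± 0.189 for mat A-1 (adjusted p = 1.72e-10), 1.18 ± 0.313 for fmf-1 (adjusted p = 0.000989), 0.87 ± 0.224 for mat A-2 (adjusted p = 0.000708) and 0.80 ± 0.153 for mat A-3 (adjusted p = 9.54e-06). Of all genes 30.6% were past this test and higher in light. In ∆ve-1 the same 7-day difference passed for the 3 mat genes, at 1.31 ± 0.184 for mat A-1 (adjusted p = 7.21e-09), 0.99 ± 0.145 for mat A-3 (adjusted p = 1.89e-08) and 0.81 ± 0.203 for mat A-2 (adjusted p = 0.000356). fmf-1 had 0.58 ± 0.283 and did not pass (adjusted p = 0.0633), and 36.2% of all genes were higher in light in this strain. The fmf-1 values depended on single replicates. Without replicate 3 the wild-type value was 0.75 (adjusted p = 0.0954), and without replicate 1 that of ∆ve-1 was 1.11 (adjusted p = 0.00235).

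After fertilization the 4 genes again were higher in light in the wild type. There mat A-1 was 4.85-fold higher in light (2.28 ± 0.257, adjusted p = 1.39e-10) and fmf-1 4.65-fold higher (2.22 ± 0.397, adjusted p = 9.34e-06). mat A-3 changed by 1.10 ± 0.201 and mat A-2 by 0.95 ± 0.281 (adjusted p = 1.37e-05 and 0.00563), so that 4 of 4 genes were higher against 23.2% of all genes. Without replicate 1 mat A-2 had 0.81 (adjusted p = 0.0981). Before fertilization 1 of the 4, mat A-1, passed in the wild type (0.66 ± 0.281, adjusted p = 0.039), where 30.6% of all genes did, and the other 3 values were 0.77 ± 0.363 for mat A-2, 0.41 ± 0.235 for mat A-3 and -0.19 ± 0.511 for fmf-1. The mat A-1 value was 0.77 without replicate 2 and 0.40 without replicate 3 (adjusted p = 0.0732 and 0.343). Whether the response to light differed between the stages was not tested.

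In ∆ve-1 after fertilization mat A-3 was higher in light by 1.53 ± 0.193 (adjusted p = 3.94e-10), mat A-1 by 1.25 ± 0.243 (adjusted p = 9.41e-06) and mat A-2 by 1.04 ± 0.261 (adjusted p = 0.000376). fmf-1 had 0.65 ± 0.366 (adjusted p = 0.112), so 3 of the 4 genes were higher against 35.7% of all genes. Before fertilization in this strain mat A-1 was higher in light (1.40 ± 0.283, adjusted p = 4.01e-05), as were 24.3% of all genes, and the other 3 had 0.51 ± 0.323, 0.28 ± 0.223 and 0.49 ± 0.444 for mat A-2, mat A-3 and fmf-1. Without replicate 1 the values of mat A-2 and fmf-1 there were 1.08 and 1.71 and passed (adjusted p = 0.0381 and 0.00619). Over the 7 days the conidia markers were higher in light as well, 5 of 5 in each strain (median log2 change 3.26 for wild type, 1.43 for ∆ve-1). Of all genes 30.6% and 36.2% were. After fertilization in the wild type, group means of eas ran from 538.3 to 2973 CPM in light and from 961.8 to 2478 CPM in the dark. Those of con-6, con-8, con-10 and fl were higher in light without overlap. The part of these markers in the light effects on the 4 genes was not tested.

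A comparison added after these values had been seen asked whether the strain effect after fertilization differed between light and dark, which is also whether the light response at that stage differed between the strains. It was smaller in light by 1.03 ± 0.345 for mat A-1 (log2 difference -1.03, adjusted p = 0.0111) and by 1.57 ± 0.533 for fmf-1 (-1.57, adjusted p = 0.012). It was 0.09 ± 0.393 for mat A-2 (adjusted p = 0.874) and 0.43 ± 0.277 for mat A-3 (adjusted p = 0.198). Of all genes 48.7% passed this test in either direction. Without replicate 3 of every group these differences were -0.76 for mat A-1 (adjusted p = 0.152), -1.31 for fmf-1 (adjusted p = 0.0905) and 0.77 for mat A-3 (adjusted p = 0.0336).

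Each gene was also followed across fertilization within a condition. mat A-2 rose from before to after fertilization in all 4 conditions, by 1.17 ± 0.341 (adjusted p = 0.00207) and 1.36 ± 0.314 (adjusted p = 0.000114) in dark and light cultures of the wild type and by 1.22 ± 0.302 (adjusted p = 0.00043) and 1.75 ± 0.299 (adjusted p = 2.09e-06) in those of ∆ve-1. mat A-3 rose in light, by 0.80 ± 0.216 in the wild type (adjusted p = 0.000792) and 1.47 ± 0.212 in ∆ve-1 (adjusted p = 6.03e-08), and had 0.11 ± 0.223 and 0.22 ± 0.209 in the dark (adjusted p = 0.671 and 0.373). Without replicate 2 the value of mat A-2 in the wild type in the dark was 0.96 (adjusted p = 0.0596). mat A-1 rose in ∆ve-1 in light (0.84 ± 0.264, adjusted p = 0.0064, but 0.66 and 0.80 without replicates 1 and 2, adjusted p = 0.0585 and 0.0675) and had 0.26 ± 0.262 in the wild type in light (adjusted p = 0.372). Thus 1 of the 4 genes rose in dark cultures of the wild type against 32.9% of all genes, and 3 in its light cultures against 37.1%. In ∆ve-1 these numbers were 3 against 28.7% for dark and 4 against 24.9% for light cultures. These differences use the same libraries as the strain comparisons above. The single step from day 0 to day 1 passed for fmf-1 (4.38 ± 0.867, adjusted p = 3.21e-05) and mat A-2 (1.58 ± 0.558, adjusted p = 0.0176) in the wild type in light. For mat A-2 the step was 1.60 without replicate 1 and 1.21 without replicate 3 (adjusted p = 0.0929 and 0.0977). Of all genes 22.9% were higher on day 1 in that comparison. The step of mat A-3 there did not pass with TMM normalization, but did with the size factors of DESeq2 in edgeR and with DESeq2 itself (0.95 in both, adjusted p = 0.0441 and 0.0374). The step of fmf-1 in ∆ve-1 passed with a replicate block in dark and in light (1.92 and 2.28, adjusted p = 0.049 and 0.0486), and in dark cultures without replicate 3 (2.89, adjusted p = 0.0223).

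A quadratic course over the 7 days was also compared, after the regression on time that the study had used, at its threshold of adjusted p under 0.001. Between the strains the courses of all 4 genes differed in the dark, with adjusted p from 1.03e-08 for mat A-1 to 0.000413 for mat A-2, where 54% of all genes did. In light all 4 differed as well, from 6.74e-11 for mat A-1 to 0.000546 for fmf-1, where 80.3% of all genes did. Within a condition all 4 genes changed over time in ∆ve-1 in light, from 5.34e-05 for mat A-3 to 0.00059 for mat A-1, against 31.6% of all genes. In the wild type mat A-1 passed in the dark (adjusted p = 0.000769, against 42.9% of all genes) and mat A-2 in light (adjusted p = 0.000393, against 52.9%). None of the 4 passed in ∆ve-1 in the dark, where adjusted p ran from 0.00275 for fmf-1 to 0.109 for mat A-3 and 21.2% of all genes passed. At an unadjusted p under 0.05 the number there was 3 of the 4. With 2 libraries a group these tests made fewer calls: without replicate 1 or without replicate 2, 0 of the 4 genes passed in ∆ve-1 in light, and without any of the replicates mat A-1 was no longer past the test in the wild type in the dark.

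Ordered by mean level over the 28 groups, mat A-1 ran from 11.1 CPM (wild type, dark, day 4) to 274.9 CPM (∆ve-1, light, day 4), a 24.7-fold range. fmf-1 ran from 1.57 CPM (wild type, dark, day -2) to 151.1 CPM (∆ve-1, light, day 6), 96.2-fold. mat A-2 ran from 0.399 CPM (wild type, dark, day -2) to 10.7 CPM (∆ve-1, light, day 1), 26.7-fold. mat A-3 ran from 1.79 CPM (wild type, dark, day -2) to 21.7 CPM (∆ve-1, light, day 4), 12.1-fold. Most neighbours in these orders could not be separated. Of the 27 pairs of neighbouring groups, the libraries did not overlap in 2 pairs for mat A-1, 2 for mat A-2, 1 for mat A-3 and 1 for fmf-1.

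The genes beside the mat genes were followed as well. Among the 5 protein-coding genes on each side, the next gene on either side was also higher in ∆ve-1. NCU01961, next to mat A-3, changed by 2.73 ± 0.142 in the dark and 2.26 ± 0.135 in light over the 7 days. NCU01957, next to mat A-1, changed by 1.05 ± 0.241 and 1.49 ± 0.234, where the dark value was 0.61 without replicate 1 (adjusted p = 0.0537). Beyond them the changes were between -0.61 and 0.80. Of the 10 neighbours 3 were past the test and higher and 3 lower in the dark, and 6 higher and 3 lower in light (median log2 change 0.03 and 0.20). Of all genes 36.5% were higher and 35.7% lower in the dark, and 38.9% and 40.7% in light, so the dark shares of the neighbours were near the background.

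NCU01957, like mat A-1, fell across fertilization in dark cultures of the wild type. There its mean was 56.4 CPM on day 0, 34.2 CPM on day 1, 4.77 CPM on day 2 and 2.40 CPM on day 4, a fall of 3.30 ± 0.355 on the log2 scale from before to after fertilization (log2 change -3.30, adjusted p = 2.7e-12). In ∆ve-1 in the dark it was 60.6, 64, 39.5 and 32.1 CPM on those days, and the mean of mat A-1 was 90.25, 163.2, 111.8 and 105.8 CPM. The group means of NCU01961 in dark cultures of the wild type lay between 5.45 and 8.94 CPM on all days, and in ∆ve-1 in the dark between 26.2 and 68.7 CPM.

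**Figure D3:**
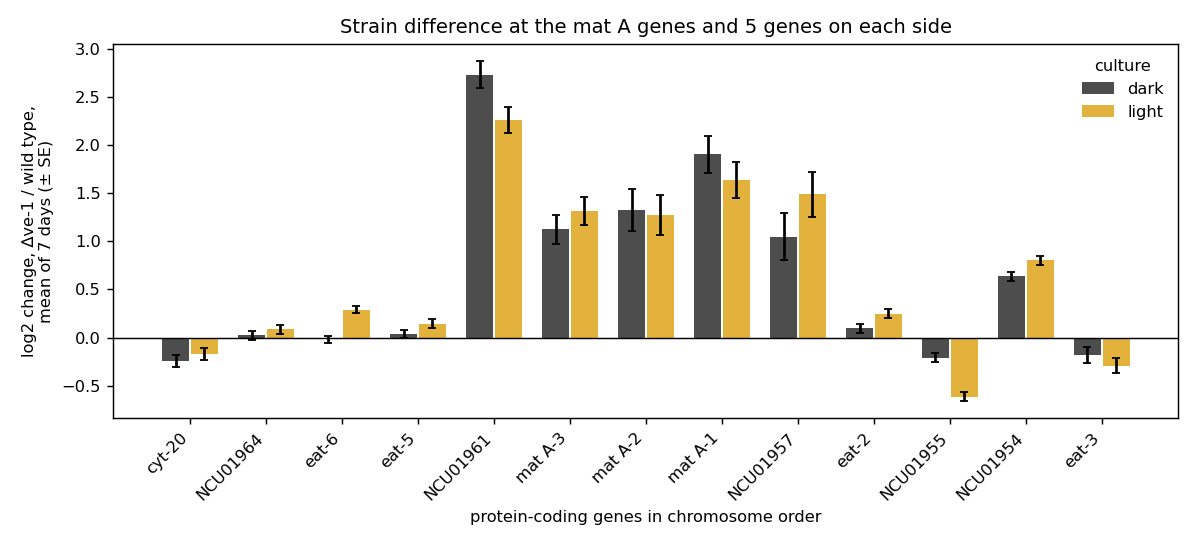
Log2 change (∆ve-1 relative to wild type, mean of the 7 days, with bars of 1 SE) of the 3 mat A genes and of the 5 protein-coding genes on each side, in chromosome order, in the dark (grey) and in light (yellow). The run of raised genes goes from NCU01961 (2.73 in the dark) to NCU01957 (1.05), with smaller changes on both sides.

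Both mat A-1 and FMF-1 are known regulators of pheromone and receptor genes, so the 4 genes of that list were followed with them. ccg-4, which encodes the pheromone of mat A cells, was 3.79 ± 0.408 higher in ∆ve-1 over the 7 days in the dark (adjusted p = 1.96e-12) and 2.27 ± 0.383 in light (adjusted p = 3e-07). pre-1, the receptor of mat A cells for the mat a pheromone, was higher by 0.81 ± 0.141 and 0.99 ± 0.139 (adjusted p = 8.79e-07 and 4.01e-09). Before fertilization pre-1 had 0.42 in the dark and 0.33 in light and did not pass (adjusted p = 0.084 and 0.166). After fertilization it had 1.11 and 1.48 (adjusted p = 7.92e-07 and 1.6e-10). The stages differed past the test in both conditions (0.69 and 1.16, adjusted p = 0.0457 and 0.000401). pre-2, the receptor of mat a cells, was lower (-0.43 ± 0.0930 and -0.42 ± 0.0933). mfa-1, which encodes the pheromone of mat a cells, had -0.32 ± 0.151 in the dark (adjusted p = 0.0526, but -0.36 and 0.0213 with DESeq2) and was lower in light (-0.66 ± 0.153, adjusted p = 9.74e-05). In light mfa-1 had 0.20 before (adjusted p = 0.457) and -1.305 after fertilization (adjusted p = 4.24e-08), and pre-2 had -0.09 and -0.66 (adjusted p = 0.599 and 2.31e-06). In the dark these values were -0.28 and -0.35 for mfa-1 and -0.43 and -0.44 for pre-2. From day 1 on, counts of these genes can also come from the applied mat a cells.

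The group mean of ccg-4 was higher on day 1 than on day 0 in all 4 conditions. In the wild type in the dark it was 206.9 CPM on day 0 and 3869 CPM on day 1, and in light 1607 and 62880 CPM. In ∆ve-1 it was 5845 and 50470 CPM in the dark and 25060 and 77780 CPM in light, and on day 6 in light it reached 151400 CPM. After fertilization the ccg-4 strain difference was 3.76 ± 0.540 in the dark and 0.87 ± 0.487 in light (adjusted p = 0.0947), and it was smaller in light by 2.90 ± 0.697 (log2 difference -2.90, adjusted p = 0.000468). mfa-1, which was also counted in the mat A females before the cross, had group means between 12.2 and 31.8 CPM before and between 234 and 2036 CPM after fertilization. On day 1 it stood at 1081 and 2036 CPM in the wild type in the dark and in light, and at 911.3 and 234 CPM in ∆ve-1.

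Among the 4 pheromone and receptor genes, and across the 28 group means on a log2 scale, mat A-1 followed pre-1 most closely (Pearson r = 0.907) and fmf-1 followed ccg-4 (0.91). The closest of the list was also ccg-4 for mat A-2 (0.864) and pre-1 for mat A-3 (0.829). Genes outside the list were closer to each member, as given below. With mfa-1 the correlation was 0.038 for mat A-1 and 0.646 for fmf-1. Among themselves the 4 genes had correlations between 0.692 (mat A-1 with mat A-2) and 0.908 (mat A-2 with mat A-3). These values describe group means that share the contrasts of strain, light and stage. Within groups, after subtraction of the group means, single libraries also moved together over the 84 libraries, with r from 0.598 (mat A-3 with fmf-1) to 0.849 (mat A-1 with fmf-1).

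**Figure D4:**
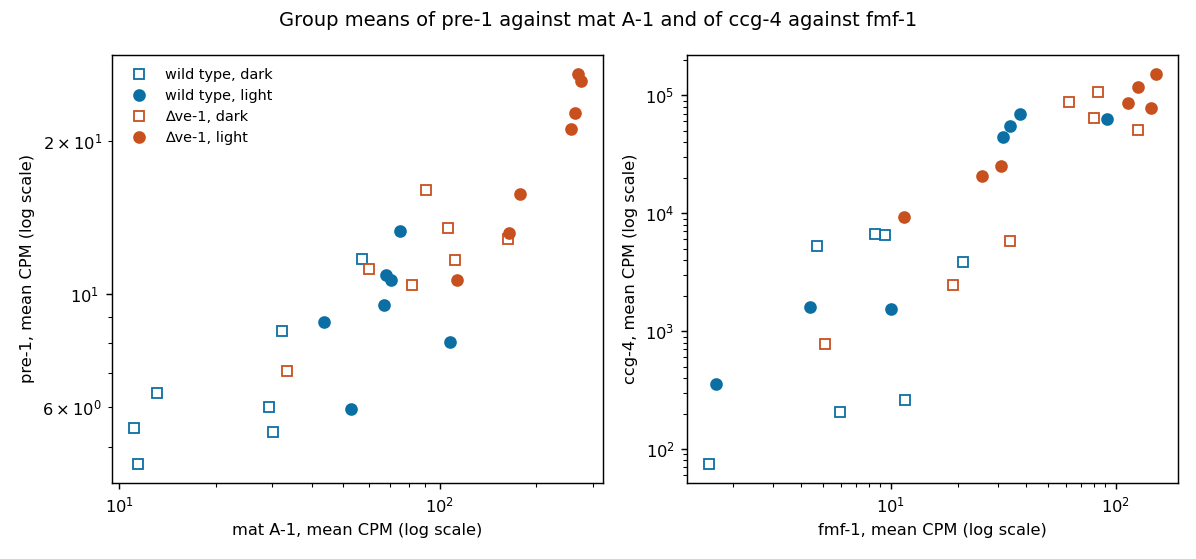
Mean CPM of pre-1 against mat A-1 (left) and of ccg-4 against fmf-1 (right) in the 28 groups, on log axes. Open squares are dark and filled circles light cultures, blue the wild type and orange ∆ve-1. The ∆ve-1 cultures in light after fertilization lie at the upper right in both panels, and the correlations of the log2 group means are 0.907 and 0.91.

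The genes whose group means were most like each member, among 9062 others with a mean of at least 1 CPM, were mostly without a gene symbol. For mat A-1 they were NCU14009 (r = 0.959), NCU00798 (0.928) and NCU09883 (0.92). For fmf-1 they were NCU04394, NCU02077 and NCU05880, all at 0.967. NCU05880 was also the closest to mat A-2 (0.92), with mat A-3 in place 5 of its list (0.908). mat A-3 was closest to NCU07505 (0.925) and had mat A-2 as its second closest.

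mat A-1 also governs vegetative incompatibility, in which fusion of mat A and mat a hyphae leads to cell death outside the sexual cycle. Of the 3 genes listed with this reaction all were lower in ∆ve-1 in both conditions over the 7 days, where 35.7% of all genes were lower in the dark and 40.7% in light. tol, which is required for the incompatibility reaction of the mating types, changed by -2.46 ± 0.184 in the dark and -2.73 ± 0.191 in light (adjusted p = 2.19e-18 and 5.36e-20). vib-1, a transcription factor needed for heterokaryon incompatibility, changed by -2.10 ± 0.109 and -2.32 ± 0.111 (adjusted p = 2.5e-25 and 1.44e-27). rco-1, a corepressor, changed by -0.28 ± 0.0482 and -0.85 ± 0.0485. In the dark rco-1 was not lower before fertilization (0.10 ± 0.0736, adjusted p = 0.229) and was lower after it (-0.57 ± 0.0639, adjusted p = 1.43e-11). In light it had -0.37 before and -1.22 after fertilization. The median log2 change of the 3 was -2.10 in the dark and -2.32 in light.

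Most genes of a list for the pathway that carries the pheromone signal inside the cell were lower in ∆ve-1. Of 10 genes (the G protein subunits gna-1, gnb-1 and gng-1, the kinases stk-4, nrc-1, mek-2 and mak-2, the scaffold ham-5 and the transcription factors pp-1 and adv-1), 7 were lower and 1 higher in ∆ve-1 in the dark, and 8 lower and 2 higher in light (median log2 change -0.25 and -0.54, against 0 and -0.06 for all tested genes, of which 35.7% and 40.7% were lower and 36.5% and 38.9% higher). The largest changes were those of adv-1, with -1.07 ± 0.081 in the dark and -2.39 ± 0.085 in light, and of ham-5, with -0.90 ± 0.074 and -1.08 ± 0.074. The study listed adv-1 under another pathway, that of cell wall integrity, and described crosstalk between the 2 pathways.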

How the data were processed

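The deposited table held raw counts of read pairs per gene, which the authors made by trimming poly-A-selected, strand-specific paired-end reads, aligning them to the NC12 genome with STAR 2.7 (version per the submitters' processing notes) and counting with featureCounts. Groups came from the sample labels, and every count column matched 1 sample. Genes were tested in R 4.3.3 with edgeR 4.0.16, using the quasi-likelihood test on 1 fit of all 28 groups with TMM normalization, the filterByExpr filter on low counts and Benjamini-Hochberg adjustment over all tested genes. A difference passed at an adjusted p under 0.05, and a quadratic time course at 0.001. SE were obtained from each log2 change and its F statistic (change over root F). CPM values are TMM-normalized. TPM used the whole length of each gene in the RefSeq annotation in place of the exon length that had been planned. The group fit was tried on simulated counts modelled on the dark libraries, for the strain effect over 7 days in the dark only. The other contrasts, the time courses and DESeq2 were not tried in this way.

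The genes named were the 4 members, the genes of the lists given in the text (pheromones and receptors, pheromone signaling, incompatibility, conidia and perithecium markers), the 5 protein-coding neighbours on each side of the locus and the genes with the highest correlation to each member. The members and lists were chosen with earlier results of these data known. A list of other HMG-box genes was not analysed here, since the annotation used gave no such names, and ste-50 was left out of the signaling list because its symbol could not be matched. The alternatives were DESeq2 1.42.0, its size factors, no low-count filter, a replicate block, each replicate number left out in turn, a fit of only the libraries compared, plain CPM and an added fold criterion (log2 change over 1).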

Additional observations from a re-analysis of the deposited data

Results flagged for a closer look

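The strain effect in the dark differed between the stages for 2 of the 4 genes, by a test of the difference itself in the fit of all 28 groups (edgeR), where 40.3% of all genes passed. For mat A-1 the log2 difference, after minus before fertilization, was 2.35 (adjusted p = 9.65e-07). For fmf-1 it was 1.54 (adjusted p = 0.0405), and without replicate 2 it was 1.02 and did not pass (adjusted p = 0.366).

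The strain effect after fertilization differed between light and dark for the same 2 genes, in a comparison chosen after the data had been seen, where 48.7% of all genes passed. The log2 difference, light minus dark, was -1.03 for mat A-1 (adjusted p = 0.0111) and -1.57 for fmf-1 (adjusted p = 0.012). Without replicate 3 neither passed, at -0.76 (adjusted p = 0.152) and -1.31 (adjusted p = 0.0905). Both comparisons use the dark libraries taken after fertilization.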

How the results depend on the processing

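Of 1208 values of the 4 genes recomputed under alternatives, 1136 kept their side of the threshold, 59 fell short of it and 13 passed it. No value that passed in either fit changed its direction. Values that passed in neither fit could change direction and still count as kept. Among the 56 single-day strain differences, 49 stayed positive whichever replicate was left out. With DESeq2 and with only the libraries compared, the rise of fmf-1 across fertilization in the wild type in the dark passed, at 1.02 and 1.00. With the size factors of DESeq2 the light effect on mat A-1 before fertilization in the wild type was 0.63 and did not pass (adjusted p = 0.0504).

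Adding the fold criterion left fewer genes: 1591 of 7011 for the strain effect in the dark, 2406 of 7726 in light and 1024 of 4295 for their difference. It left 741 of 5475 for light in the wild type (2 of 4 members in place of 4) and 1290 of 6862 for light in ∆ve-1 (1 member in place of 3). Across fertilization it left 2183, 2498, 1693 and 847 genes in wild type dark, wild type light, ∆ve-1 dark and ∆ve-1 light.

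Leaving out 1 replicate number in turn, the light effect on fmf-1 ran from 0.75 to 1.47 in the wild type and from 0.43 to 1.11 in ∆ve-1. Across fertilization mat A-2 ran from 0.96 to 1.35 and fmf-1 from 0.64 to 1.23 in the wild type in the dark, where 1 to 3 members passed, and mat A-1 from 0.66 to 1.09 in ∆ve-1 in light, where 2899 to 4946 genes passed. The time courses called 2940 to 3634 genes between the strains in the dark (1 to 4 members) and 2 to 3 members in light. Within a condition they called 1771 to 2081 genes and 0 members in wild type dark, 2223 to 2793 genes and 0 to 1 members in wild type light, 603 to 984 genes in ∆ve-1 dark, and 715 to 1668 genes and 0 to 4 members in ∆ve-1 light.

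The labels do not say whether libraries of the same replicate number belong together, and the main fit did not pair them. Deviations of same-numbered libraries from their group means correlated between -0.316 and 0.304 between the strains (42 pairs), between -0.279 and 0.416 between the light conditions (42 pairs) and between -0.721 and 0.627 between consecutive days. The medians were 0.125, 0.11 and 0.096 in that order. With the number as a block, the time course in the wild type in the dark called 0 members in place of 1, and the step from day 0 to day 1 of fmf-1 in ∆ve-1 passed in dark and in light (1.92 and 2.28, adjusted p = 0.049 and 0.0486). No other call on a member changed.

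Depth limits mat A-2 most, which had as few as 5 counts in a library. The spread within groups before fertilization in ∆ve-1 limits fmf-1.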
